A study of Rattus norvegicus with 20 samples.

Results

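A set of 10 named genes of endotoxin and microbial sensing was looked for in rat lung RNA after inhalation of crystalline silica, a mineral dust. They are Lbp, Cd14, Ly96, Tlr4, Tlr2, Tlr3, Tlr7, Myd88, Tirap and Irak1, and a gene was taken when the symbol of its table row, without a trailing tag for predicted or mapped genes, was on this list. Of the 10 genes, 8 had a row, each with a single row and a single probe, among the 21792 rows of the table. Ly96 and Tirap matched no row by this rule and are not analysed here. Total RNA came from the lungs of 20 male rats of the strain labelled CDF Fisher 344, aged 3 months, with 1 Illumina bead array per rat. The 8 silica rats (identifiers 81 to 88) had inhaled the dust at 15 mg/m3 on 5 days, 6 h each day, and were killed 16 h after the last exposure, which the labels call 0 weeks after exposure. The 12 air rats carried the same times on their labels. Their identifiers form 3 blocks of 4 (89 to 92, then 105 to 108, then 137 to 140), here called runs, and the first run follows on from the silica rats. Each rat is a separate animal, and the labels do not say whether a run was exposed or processed together.

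Toll-like receptors are membrane proteins of innate immunity that recognise parts of microbes and products of damaged cells. Bacterial endotoxin in the airspace or blood is picked up by LBP, handed to CD14 on the surface of monocytes, macrophages and neutrophils, and presented to the receptor pair of TLR4 and MD-2, the product of Ly96. TLR2 recognises bacterial lipoproteins, also with help from CD14, while TLR3 and TLR7 lie in endosomes and bind RNA. All of these receptors except TLR3 signal through the adaptor MYD88 and kinases of the IRAK family, of which IRAK1 is a member, to NF-kB. TIRAP links MYD88 to TLR2 and TLR4.

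Of the genes that rose with silica (Lbp, Cd14 and Tlr2), Cd14 and Tlr2 had a promoter entry in RefSeq's table for the rat assembly GRCr8, and their windows of 250 bases before and 50 bases after the transcript start used by that table are shown, since NF-kB is the factor at the end of the pathway. Capitals mark stretches that match the NF-kB type motif (GGG, then any 5 bases, then CC) on either strand, with overlapping matches joined. Both windows lie inside the annotated span of their gene, so the bases before that start are within the gene as annotated.
Cd14, chr18:28611109-28611408, minus strand: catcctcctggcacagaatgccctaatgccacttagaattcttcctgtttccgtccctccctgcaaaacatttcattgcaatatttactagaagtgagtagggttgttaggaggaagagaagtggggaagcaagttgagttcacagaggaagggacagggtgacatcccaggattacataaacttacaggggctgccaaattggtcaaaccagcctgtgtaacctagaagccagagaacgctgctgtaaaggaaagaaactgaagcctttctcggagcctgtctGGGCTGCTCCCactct
Tlr2, chr2:171504508-171504807, minus strand: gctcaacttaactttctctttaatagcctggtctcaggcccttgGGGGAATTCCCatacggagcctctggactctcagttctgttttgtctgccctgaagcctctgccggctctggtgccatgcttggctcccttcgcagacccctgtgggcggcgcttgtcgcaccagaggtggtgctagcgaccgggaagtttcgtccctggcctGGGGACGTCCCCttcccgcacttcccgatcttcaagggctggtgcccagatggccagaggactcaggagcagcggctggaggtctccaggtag
The Cd14 window held 1 such stretch, 35 bases after the start, and the Tlr2 window held 2, at 206 and 43 bases before it. The motif is common: 47.3% of 33469 rat promoter windows of this length held it. Of the other measured members with an entry, Tlr3 held 1 stretch, whereas Tlr4, Tlr7 and Irak1 held none. Myd88 held no match to it, 1 match to the interferon response type (GAAA, any 2 bases, GAAA; in 3.92% of windows) and 1 stretch matching the AP-1 type TGANTCA (in 7.33%). A match of letters is a description of the window and not a measured binding site. On GRCr8 the genes span chr3:167373786-167400941 (Lbp), chr18:28609558-28611409 (Cd14), chr5:85161247-85174882 (Tlr4), chr2:171499189-171504831 (Tlr2), chr16:53554916-53572321 (Tlr3), chrX:30644324-30670796 (Tlr7), chr8:127952161-127956230 (Myd88) and chrX:156919927-156929825 (Irak1). The probes' own positions are not used here.

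The arrays of the 2 groups were alike in brightness and detection. Median intensity before normalization was 67.0 to 98.6 on silica and 67.1 to 97.3 on air arrays, and 9480 to 10816 genes were detected on silica against 9434 to 10840 on air arrays. Pairs of arrays correlated at 0.978 to 0.996 across genes, which are not independent replicates. All 8 alveolar type 2 and all 6 alveolar type 1 marker genes passed the filter. The mean level of 4 heart muscle markers varied widely in both groups (log2 5.11 to 10.21 in silica and 5.29 to 10.67 in air).

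All 8 sensing genes were detected on 8 of 8 silica and 12 of 12 air arrays, with 24 to 57 beads behind each mean. Lbp, Cd14 and Tlr2 rose with silica, none fell, and Tlr4, Tlr3, Tlr7, Myd88 and Irak1 did not pass the test (limma, Benjamini-Hochberg adjusted p under 0.05 over 10488 genes). None was lower at an unadjusted p under 0.05 (limma, 0 of 8), where 2080 of the 10488 genes tested were lower. Of all genes tested, 24.5% passed, 11.7% upward and 12.7% downward, so 3 of 8 rising is to be read against that 11.7%. The members, and the gene lists below, were chosen with earlier results of these data known. Their counts beside such shares are therefore a description and not a test. The median difference over the 8 genes was 0.08 on the log2 scale, against −0.02 over all genes tested. Against all 12 air rats, Cd14 alone among the 8 passed with a rise of at least 1.5-fold, a step that 1.23% of all genes took. Its log2 difference was 0.45 against air rats 89 to 92 alone, which is less than 1.5-fold. Values below are normalized log2 intensities, and a difference is the silica mean minus the air mean. An offset added before the logarithm draws differences of dim genes toward 0. Because probes differ in brightness, no level is set against that of another gene.

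**Figure D1:**
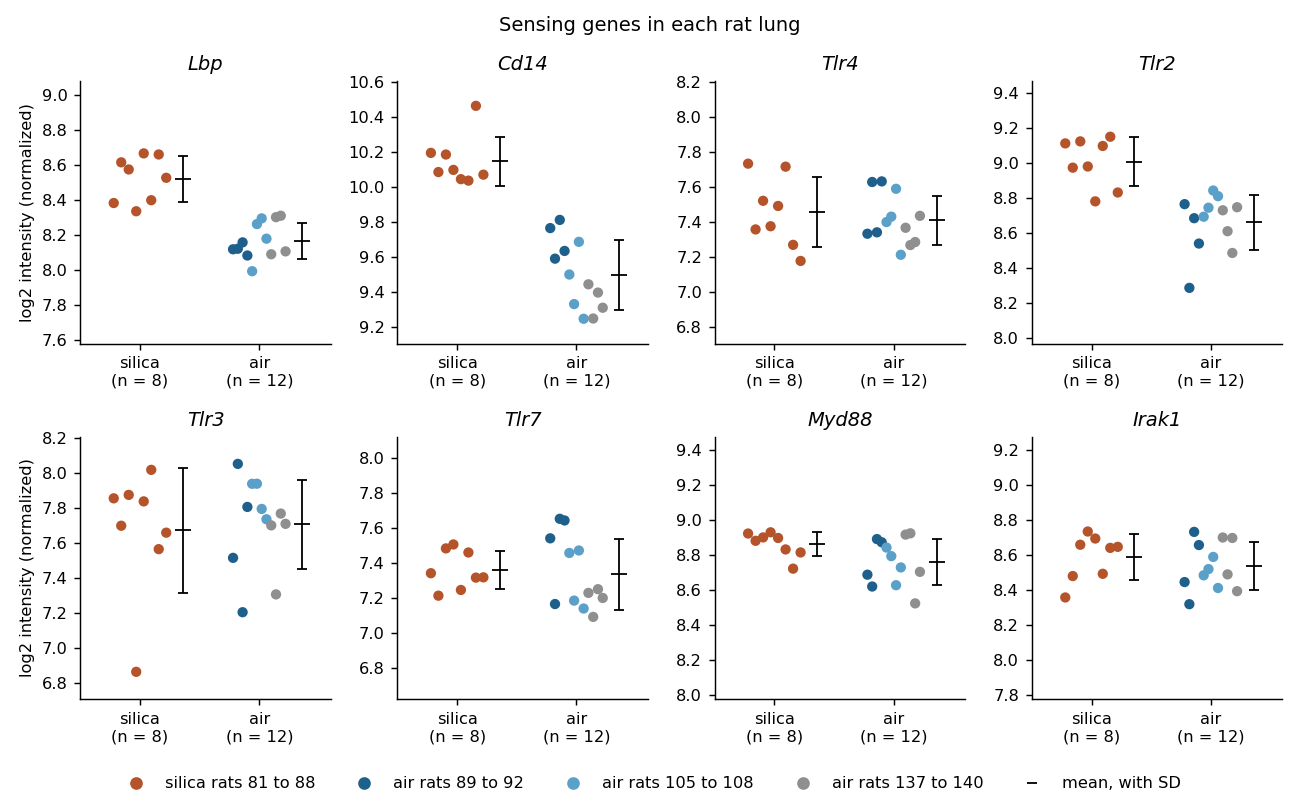
Normalized log2 intensity (vertical axes, each spanning the same number of log2 units) of the 8 sensing genes in each silica rat (left, n = 8) and each air rat (right, n = 12, coloured by run of identifiers), with the mean and SD of each group as bars. All 8 silica points lie above all 12 air points for Lbp and Cd14, 6 of 8 do so for Tlr2, and the groups overlap for the other genes.

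The carrier of endotoxin rose by a small step that, after normalization, showed on every silica array. Lbp (array identifier ILMN_1376661) codes for lipopolysaccharide-binding protein, an acute-phase protein made mainly by the liver and also by lung epithelium. Its lowest, median and highest values were 8.34, 8.55 and 8.67 in silica lungs, against 7.99, 8.14 and 8.31 in air lungs. The 2 groups did not overlap, which was true upward of 1.83% of all genes tested. In intensities before normalization they did overlap, at 317 to 521 (median 398) in silica and 270 to 414 (median 329) in air. The difference was 0.35 ± 0.05 (SE; 95% interval 0.24 to 0.46), or 1.28-fold (adjusted p = 4.72e-05). None of the 4 liver markers tested passed, and their mean level was 6.99 to 8.53 in silica and 6.85 to 8.50 in air.

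The co-receptor rose furthest of the 8 genes against all 12 air rats. Cd14 (ILMN_1352209) had lowest, median and highest values of 10.04, 10.09 and 10.47 in silica lungs, against 9.25, 9.47 and 9.81 in air lungs. Every silica array lay above every air array, and 7 of the 8 silica rats fell in a narrow band from 10.04 to 10.20 with rat 87 above it. In intensities before normalization, Cd14 ranged from 977 to 1377 (median 1157) in silica and from 572 to 1101 (median 749) in air, where the groups did overlap. The normalized mean was 10.15 with an SD of 0.14 over the 8 silica rats, and 9.50 with an SD of 0.20 over the 12 air rats. The difference of 0.65 ± 0.08 (SE; 95% interval 0.49 to 0.81) was a 1.57-fold rise (1.41 to 1.75; adjusted p = 1.12e-06), and in order of size the rise ranked 109 among all genes tested.

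Among the receptors themselves, Tlr2 rose and Tlr4 did not pass. Tlr2 (ILMN_1353896) had values of 8.78, 9.04 and 9.15 (lowest, median, highest) in silica lungs, against 8.29, 8.71 and 8.84 in air lungs. The groups touched: silica rats 85 and 88 lay at 8.78 and 8.83, below the highest air array, and the other 6 lay above every air array. The difference was 0.34 ± 0.07 (SE; 95% interval 0.21 to 0.48), or 1.27-fold (adjusted p = 5.17e-04). Tlr4 (ILMN_1364385), the endotoxin receptor, had values of 7.18, 7.43 and 7.73 in silica and 7.21, 7.38 and 7.63 in air lungs. Its silica values straddled the air range, with 2 arrays above every air array and the lowest below it. The difference of 0.05 ± 0.07 had a 95% interval of −0.11 to 0.20 (adjusted p = 0.701), or 0.928-fold to 1.15-fold.

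The RNA receptors spread more than they differed. Tlr3 (ILMN_1355463), which binds double-stranded RNA, had values of 6.87, 7.77 and 8.02 in silica and 7.21, 7.75 and 8.05 in air lungs. Silica rat 84 held the lowest value of all 20 arrays, and the SD was 0.36 in silica and 0.25 in air. The difference was −0.03 ± 0.12 (SE; 95% interval −0.29 to 0.22, adjusted p = 0.869), and it was 0.08 without rat 84. Tlr7 (ILMN_1371182, listed as predicted), which binds single-stranded RNA, had values of 7.21, 7.33 and 7.50 in silica and 7.09, 7.24 and 7.65 in air lungs. The silica values lay inside the air range, and the difference was 0.02 ± 0.08 (95% interval −0.13 to 0.18, adjusted p = 0.847).

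The shared signalling parts showed no change that passed. Myd88 (ILMN_1359024) had values of 8.72, 8.89 and 8.93 in silica and 8.52, 8.76 and 8.92 in air lungs, and 7 of the 8 silica values lay above the air median. Its difference was 0.10 ± 0.05 (95% interval −0.01 to 0.21, adjusted p = 0.164). Irak1 (ILMN_1651046, listed as predicted) had values of 8.36, 8.65 and 8.74 in silica and 8.32, 8.51 and 8.73 in air lungs. The groups overlapped almost fully, with a difference of 0.05 ± 0.06 (95% interval −0.07 to 0.18, adjusted p = 0.577).

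The 3 rises were found against each run of air rats alone, and the size of the Cd14 rise depended on the run. Against air rats 89 to 92, which follow the silica rats in number, Cd14 differed by 0.45 (adjusted p = 0.00233), Lbp by 0.40 (0.00357) and Tlr2 by 0.44 (0.00998), where 3.76% of all genes rose and 2.43% fell. Against air rats 105 to 108 the differences were 0.71 for Cd14, 0.34 for Lbp and 0.23 for Tlr2, whose adjusted p was 0.0374, where 8.73% of all genes rose. Against air rats 137 to 140 they were 0.80, 0.32 and 0.36 for the same genes, where 10.8% of all genes rose. These comparisons share the silica arrays. In air lungs alone, mean Cd14 was 9.70 in rats 89 to 92, 9.44 in rats 105 to 108 and 9.35 in rats 137 to 140. A moderated F test over the 3 runs gave Cd14 an unadjusted p of 0.00435 and an adjusted p of 0.183, and none of the 8 genes passed it (0.162% of all genes did).

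**Figure D2:**
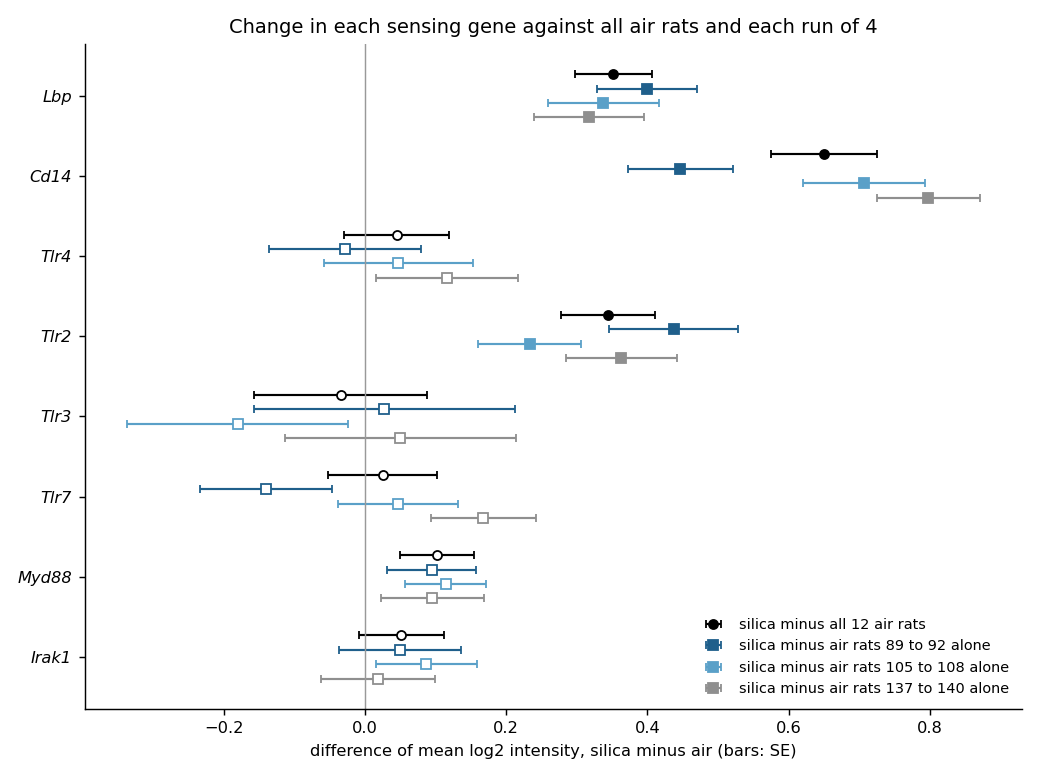
Difference of mean log2 intensity, silica minus air (horizontal axis; bars are SE), for the 8 sensing genes against all 12 air rats (circles) and against each run of 4 (squares). Filled symbols passed at an adjusted p under 0.05; Lbp, Cd14 and Tlr2 are filled throughout, and the Cd14 difference is 0.45 against rats 89 to 92 and 0.80 against rats 137 to 140.

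Whether Cd14 changed more than the other members was tested on the difference between 2 genes within each array, by an exact permutation test over all 125970 divisions of the arrays (2-sided, adjusted over the 7 pairs). Cd14 had the largest rise of the 8 genes in these same data, a selection that the adjustment over the 7 pairs does not cover. Against all 12 air rats the change of Cd14 exceeded that of each of the other 7. It exceeded Tlr7 by 0.63 and Irak1 by 0.60 (exact adjusted p = 2.78e-05 for each), Tlr4 by 0.61 and Myd88 by 0.55 (9.72e-05 for each) and Tlr3 by 0.68 (0.00104). For the other rising genes the excess was smaller, 0.31 over Tlr2 and 0.30 over Lbp (exact adjusted p = 0.00838 for each). It was not found against air rats 89 to 92 alone, where the arrays allow only 495 divisions. There the excess was 0.01 over Tlr2 (exact adjusted p = 0.901) and 0.05 over Lbp (0.714). Against that run the excess over Tlr3 was 0.42 and also did not pass (0.192), while those over Tlr4, Tlr7, Myd88 and Irak1 did (0.00707 to 0.0318).

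Within a group, few pairs of the sensing genes passed a test of correlation. Pearson r ran from −0.66 to 0.61 across the silica rats, and with 8 rats only strong correlations could pass. Of 28 pairs, none passed across the 8 silica rats by Pearson r (exact permutation tests, lowest adjusted p = 0.718, and 0 at an unadjusted p under 0.05). None passed by Spearman rho either (exact permutation tests, lowest adjusted p = 0.428). Unadjusted, rho had a p under 0.05 for Tlr3 and Tlr4 (rho = 0.76, exact p = 0.0368), Tlr7 and Lbp (−0.76, 0.0368) and Cd14 and Tlr2 (0.74, 0.0458). Across the 12 air rats 1 pair passed, Cd14 and Tlr7, with a Pearson r of 0.86 (permutation p, adjusted over the 28 pairs, 0.0269) and a Spearman rho of 0.85 (0.0280). Without the 2 arrays farthest from the Cd14 median r was 0.76, and with each run's mean removed it was 0.75. The same pair had an r of −0.04 across the 8 silica rats (exact adjusted p = 0.972; rho = 0.12, adjusted p = 0.969), and the difference between the groups' correlations was not tested. Cd14 and Tlr2, which both rose, had an r of 0.61 across silica rats (exact adjusted p = 0.718; rho = 0.74, adjusted p = 0.428) and −0.07 across air rats (permutation adjusted p = 0.904; rho = −0.07, adjusted p = 0.974).

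**Figure D3:**
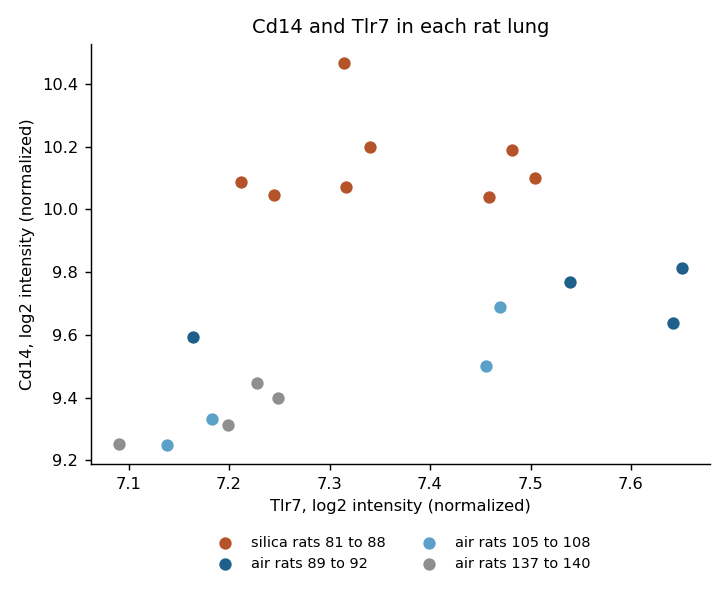
Normalized log2 intensity of Cd14 (vertical axis) against Tlr7 (horizontal axis) in each of 8 silica and 12 air rats. The air points lie along a rising line (r = 0.86) with air rats 89, 91 and 92 at its upper end and air rat 90 lower, and the silica points form a flat band above all of them.

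Markers of other cell types moved in the same lungs. In a bulk lung sample, more cells of a type and more RNA per cell cannot be told apart. Of 11 monocyte and recruited macrophage markers tested, 7 rose and none fell (11.7% of all genes rose and 12.7% fell), and their mean level was 8.79 to 9.10 on silica against 8.07 to 8.72 on air arrays. Examples were Ly6c (difference 0.71), a monocyte surface protein, and Arg1 (1.04), arginase. Of 10 neutrophil markers, 6 rose and none fell (mean level 7.37 to 7.76 in silica, 6.82 to 7.20 in air), led by Il1r2 (1.31) and Cd177 (2.70), while S100a9, Fpr1, Mpo and Ngp were not detected on any array. Among the 6, Csf3r was detected on 6 of 8 silica and 2 of 12 air arrays, and Cxcr2 on 8 of 8 and 6 of 12. Both passed the filter mainly through the silica arrays. Of 9 alveolar macrophage markers, 4 rose, with Chi3l1 (1.11) and Cd68 (0.92) in front, and Car4 (−0.27) fell; Marco was not detected on any array. The mean level of this list was 9.79 to 9.98 in silica and 9.22 to 9.87 in air. Against air rats 89 to 92 alone, where 3.76% of all genes rose, 5 of 11 monocyte, 4 of 10 neutrophil and 2 of 9 alveolar macrophage markers rose. Mrc1 and Cd68 stand on both macrophage lists. T and natural killer cell markers fell in 8 of 10 cases, among them Prf1 (−0.33) and Cd3d (−0.43), with a mean level of 8.48 to 8.72 in silica and 8.69 to 9.03 in air (12.7% of all genes fell). Markers also fell in 4 of 6 cases for endothelium, 3 of 6 for fibroblasts and 2 of 3 for B cells, and none of these rose. For dendritic cells 1 of 7 rose and 1 fell. Against air rats 89 to 92 alone, where 2.43% of all genes fell, 2 of 10 T and natural killer cell and 2 of 6 endothelial markers fell, and none of the fibroblast or B cell markers passed. Cd3d did not pass there (−0.29, adjusted p = 0.0685). The part of these shifts in the rises of Cd14, Tlr2 and Lbp was not tested.

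Of 86 further genes of the pathway in 6 lists, 60 could be tested, of which 16 rose, 2 fell and 42 did not pass, with a median difference of 0.10. Of all genes tested, 11.7% rose and 12.7% fell. Without silica rat 83, 10 of the 16 passed again, and with median scaling of the arrays 7 did. Against air rats 89 to 92 alone, where 3.76% of all genes rose and 2.43% fell, 4 of the 16 and 1 of the 2 passed again, and 1 further gene rose. Among the other Toll-like receptors only 2 of 9 could be tested: Tlr13, which senses bacterial ribosomal RNA in mice, rose by 0.24 (adjusted p = 0.0432) and Tlr6, a partner of TLR2, had a difference of 0.14 (0.0581). Tlr13 differed by 0.09 and did not pass against air rats 89 to 92 alone (adjusted p = 0.730). Tlr5, Tlr10, Tlr11 and Tlr12 were not detected on any array.

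Of 9 receptor partners and chaperones tested, 3 rose and none fell. These were Cd36 (difference 0.25 ± 0.05 SE), a scavenger receptor that works with TLR2, and Itgam (0.36 ± 0.09) and Itgb2 (0.27 ± 0.08), which form the integrin CD11b/CD18. With air rats 89 to 92 as the only controls Cd36 passed (0.21, adjusted p = 0.0160), whereas Itgam (0.35, 0.152) and Itgb2 (0.11, 0.570) did not. Itgam is also on the monocyte marker list. Of 15 adaptors, kinases and ubiquitin ligases tested, 3 rose and none fell (11.7% of all genes rose): the kinases Btk (0.34, adjusted p = 0.00316), Ikbke (0.31, 0.00347) and Irak2 (0.25, 0.0285). Irak2 is a relative of Irak1. Of these, Ikbke passed against air rats 89 to 92 alone (0.44, adjusted p = 0.00368), but Btk (0.28, 0.196) and Irak2 (0.09, 0.713) did not.

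Of 13 negative regulators tested, 5 rose and 1 fell, set against 11.7% and 12.7% of all genes. Zc3h12a, the ribonuclease that degrades inflammatory mRNAs, rose by 0.72 ± 0.11 (SE; adjusted p = 2.71e-05) and was detected on 8 of 8 silica and 8 of 12 air arrays. Ptpn6, a phosphatase, rose by 0.23 (adjusted p = 0.00420) and Nfkbia, the NF-kB inhibitor that NF-kB itself induces, by 0.22 (0.00738). Sigirr, an inhibitory receptor of epithelium, fell by 0.16 (adjusted p = 0.00655). Of 11 transcription factors tested, Irf8 (0.40, adjusted p = 3.95e-04) and Irf5 (0.21, 0.0273) rose and none fell; Irf8 was detected on 7 of 8 silica and 5 of 12 air arrays. Zc3h12a also passed against air rats 89 to 92 alone (0.70, adjusted p = 0.0130), and Ptpn6 (0.19, 0.208), Nfkbia (0.25, 0.0741), Sigirr (−0.14, 0.172), Irf8 (0.34, 0.0689) and Irf5 (0.22, 0.245) did not pass there.

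Of 10 genes that handle endotoxin and other microbial ligands, 2 rose and 1 fell, again beside 11.7% and 12.7% of all genes. Sftpd, the lung collectin surfactant protein D that binds endotoxin, rose by 0.58 ± 0.09 (SE; adjusted p = 4.42e-05). S100a8, a calcium-binding protein of neutrophils that acts on TLR4, rose by 0.37 ± 0.09 (adjusted p = 0.00423). Ager, a receptor of damage products found on alveolar type 1 cells, fell by 0.20 (adjusted p = 6.15e-04). S100a8 (0.44, adjusted p = 0.0425) and Ager (−0.20, 0.0240) passed against air rats 89 to 92 alone, and Sftpd did not (0.40, 0.0530). Sftpd, S100a8 and Ager also stand on the lists for alveolar type 2 cells, neutrophils and alveolar type 1 cells. Of those lists, 4 of 8 type 2 markers rose and none fell (mean level 12.72 to 12.90 in silica, 12.45 to 12.75 in air), and 2 of 6 type 1 markers fell and none rose (10.96 to 11.15 in silica, 11.01 to 11.22 in air). The part of cell numbers in these changes was not tested.

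**Figure D4:**
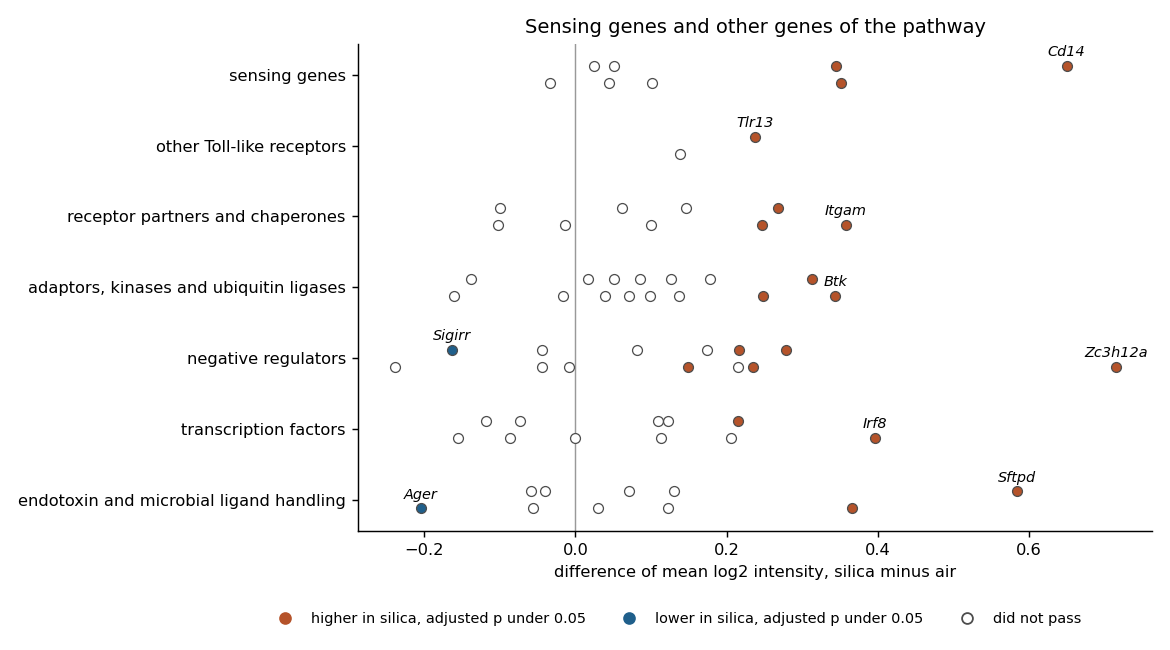
Difference of mean log2 intensity, silica minus air (horizontal axis), for the 8 sensing genes (top row) and the 60 further pathway genes tested, 1 point per gene in rows by list. Filled points passed at an adjusted p under 0.05 (16 of the 60 higher and 2 lower in silica, against all 12 air rats); Cd14 lies farther right than all but Zc3h12a.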

How the data were processed

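The table used holds, for each gene and array, a mean bead intensity. It also holds detection p-values and bead numbers, a signal of how precise each mean is, and all 3 were deposited by the authors. BeadStudio, lumi and limma are named, without versions, in the submitters' processing notes, which do not say what each did. Judging from the values, the deposited intensities were neither background-corrected nor normalized. The authors' deposited log2 values (12763 rows) are normalized between arrays and served as an alternative. A further 20 columns of bead standard errors were not used. No source used here gives the array's genome build.

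Intensities were background-corrected and quantile-normalized with limma 3.58.1 in R 4.3.3, by its neqc procedure with an offset of 16 and negative-control levels inferred from the detection p-values. The 618 rows whose detection p-values combine several probes were left out of that inference (control SD 7.48 to 14.3; with the default call it was 89.7 to 262). The test (lmFit; eBayes with trend; Benjamini-Hochberg, 2-sided) ran on the 10488 genes with a detection p below 0.01 on 8 arrays or more. Symbols were updated through RefSeq's gene table for GRCr8: 9918 rows matched a symbol, 4817 a synonym and 1586 a gene ID, and 5471 kept their name.

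Comparisons of Cd14 with other genes used exact permutation tests throughout. Correlations used exact permutation tests in silica rats and 100000 permutations in air rats (numpy 2.4.6, with ranks from scipy 1.17.1). Fits were tested on simulated data. Named genes were all members, up to 3 passing genes per pathway list and direction, and up to 2 per marker list. The members and lists were chosen with earlier results of these data known. Alternatives covered background, scaling, filter, array weights, air runs, blocks and leaving out each array. BeadChip and scan date are not used here, and the number of arrays limits the precision.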

Additional observations from a re-analysis of the deposited data

Results flagged for a closer look

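Among the 8 silica rats 2 values stood far from the rest of their group for their gene, by Dixon's test at the 95% level. Cd14 in silica rat 87 was 10.47, while the other 7 lay between 10.04 and 10.20, and leaving that rat out gave a Cd14 difference of 0.60 (adjusted p = 3.04e-06). Tlr3 in silica rat 84 was 6.87, while the other 7 lay between 7.57 and 8.02, and leaving that rat out gave a Tlr3 difference of 0.08 (adjusted p = 0.598). Chance alone gives about 1 such value in 20 groups, and 8 genes were looked at.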

How the results depend on the processing

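Each of the 8 differences was recomputed under 37 alternatives, 20 that left out 1 array and 17 others, 1 of which (median scaling over genes detected on all 20 arrays) was chosen after seeing the data. Where runs were a block, the silica rats were placed in the same run as air rats 89 to 92. The fixed block therefore gives the difference against air rats 89 to 92, with the spread taken from all 20 arrays, and is no separate estimate. Lbp, Cd14 and Tlr2 stayed higher and past the threshold in all 37, at 0.279 to 0.400, 0.447 to 0.797 and 0.233 to 0.437. Their highest adjusted p was 0.00912, 0.00233 and 0.0374. The other 5 genes did not pass in any of the 37; signs that turned were these. Tlr3 was positive against air rats 89 to 92 and with runs as a fixed block (0.0271 in both), against air rats 137 to 140 (0.0504), on the 16 arrays that share replicate numbers with or without the block (0.0387 in both) and without silica replicate 4 (leave-one-out range −0.0838 to 0.0811). Tlr4 was −0.0283 against air rats 89 to 92 and with the fixed block. Tlr7 was −0.14 in both of these, −0.0090 with median scaling, −0.0024 with array weights and −0.0042 with runs as a random block. Irak1 was −0.0032 with median scaling.

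The number of further pathway genes higher in silica was 16, and 7 with median scaling (7 of them among the 16), 5 against air rats 89 to 92 (4 among the 16), 10 against air rats 105 to 108 (10) and 8 with the fixed block (6); it ranged from 10 to 19 when 1 array was left out. The number lower was 2, and 0 with median scaling. At an unadjusted p under 0.05 (limma) it was 5 of 60 with median scaling, beside 1853 of 10488 genes tested. At the adjusted threshold it was 1 against air rats 89 to 92, with the fixed block or with the replicate block. It ranged from 2 to 3 when 1 array was left out. Members whose change was smaller than that of Cd14 by the exact test numbered 7 against all air rats and 4 against air rats 89 to 92. Over all genes, 1231 rose and 1334 fell, and with median scaling it was 571 and 817. Against air rats 89 to 92 it was 394 and 255, and against air rats 105 to 108 it was 916 and 901. Against air rats 137 to 140 it was 1128 and 1041. The fixed block, with its difference from air rats 89 to 92 and its spread from all 20 arrays, gave 436 and 333. The causes were not tested.

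Same-numbered silica and air arrays did not deviate together (correlations −0.23 to 0.16). No pairing by number was seen, though such low correlations do not exclude one. With the replicate block, which keeps 16 arrays, Cd14 was 0.62, 3 members rose and 711 of all genes fell (909 on these 16 arrays without the block). Low signal over background limits dim genes, whose differences the offset reduces.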
